A study of Mus musculus with 10 samples.

Results

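miR-191 and miR-425 are mouse miRNAs whose hairpins lie next to each other inside the gene Dalrd3. They were taken as the panel's rows named mmu-miR-191 and mmu-miR-425, which are 2 of its 566 mouse miRNA probes, and their counts and the ratio between them were followed in all 10 libraries. The libraries came from B cell progenitors of C57BL/6 fetal liver at E14.5, transformed in culture with the pMSCV-v-Abl retroviral vector, which encodes the Abelson kinase, with IL-7 added to support transformation. Both genotypes were treated in this way. There were 5 libraries of genotype Bim3’UTRmut/mut (mutant 6 to 10) and 5 of wild type (wild type 1 to 5). The mutation is homozygous in the 3′UTR of Bim, a pro-apoptotic BH3-only gene, and the labels do not say which bases it changes. Separate embryos, cultures or clones are not named for the libraries either, so each p-value rests on a spread between libraries that may be technical. The comparison asks whether these miRNAs were present at similar levels in both genotypes.

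Neighbouring miRNAs are commonly cut by Drosha from 1 primary transcript, exported, trimmed by Dicer and loaded into Argonaute proteins, where bases 2 to 8 (the seed) guide pairing to target mRNAs. Members of a cluster therefore share their transcription, while processing and decay are set for each miRNA by itself. miR-191 and miR-425 are known as an intronic cluster of Dalrd3, which encodes a protein that, in human cells, binds arginine tRNAs. Both are expressed widely, including in lymphocytes, and are often used as reference miRNAs in PCR studies. In mouse, miR-191 has been reported to affect B-cell development through transcription factor targets that include Foxp1 and Egr1.

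In the GRCm38.p6 annotation of RefSeq, Dalrd3 spans chr9:108567484-108572773. The miR-191 hairpin (chr9:108568319-108568392, plus strand) and the miR-425 hairpin (chr9:108568777-108568861, plus strand) are separated by 384 bases. The panel names carry no arm. They were taken as the 5′ arms by name, from current nomenclature and not by an accession match, and the sequences, seeds and edit distances given here rest on that. The panel held 0 other probes for these hairpins. The mature sequences are shown with the seed in capitals, because they bear on whether the probes could be mistaken for each other or for a relative. Both were matched in RefSeq, and miR-489-3p is given as the other RefSeq mouse miRNA with the seed of miR-425:
mmu-miR-191-5p: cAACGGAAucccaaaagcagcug
mmu-miR-425-5p: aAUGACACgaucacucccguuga
mmu-miR-489-3p: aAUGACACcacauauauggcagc
The 23-base miR-191-5p lies at chr9:108568325-108568347 and the 23-base miR-425-5p at chr9:108568789-108568811. The members differ from each other by an edit distance of 15. No other mature mouse miRNA in the table of 1679 names had the seed of miR-191. The nearest other mature sequence was 8 edits away from each of them. The miR-489 probe had 33 to 49 counts in mutant and 29 to 49 in wild type libraries, above background in 0 libraries.

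The input was 100 ng of total RNA, and the NanoString nCounter assay ligates a tag to each miRNA and counts the barcodes hybridised to it. The sum over all probes was 356141 to 470493, and that over mouse miRNAs 251192 to 354826 in mutant and 240469 to 266022 in wild type libraries. The column headers number the mutant samples 6 to 10 and the wild type samples 1 to 5 after 1 shared code. What that code and order stand for is not stated. Any effect that follows this order cannot be told apart from genotype. Of the listed cell type markers, 6 of 6 B-lymphoid and pan-haematopoietic probes were kept as detected (above background in at least 5 libraries). Of those for other cells, from erythroid (miR-451) and myeloid (miR-223) to hepatocyte (miR-122) and neural (miR-124), 0 of 16 were kept. These 16 probes exceeded background in 5 of their 160 values, and their summed counts were 617 to 985 in mutant and 741 to 868 in wild type libraries. The highest sum, 985, was that of mutant 10, and mutant 9 had 649. The values above background came from miR-126-3p (2 libraries, highest count 234), miR-223 (2 libraries, highest 137) and miR-451 (1 library, highest 103). Both members were well above background in all 10 libraries. The lowest miR-191 count was 7.83 times its library's background threshold (mean + 2 SD of the negative controls), and the lowest miR-425 count was 4.76 times. Counting error alone was 2.16% to 3.38% of a miR-191 count and 2.85% to 4.39% of a miR-425 count.

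miR-191 was steady in wild type libraries and varied among mutant ones. Its counts were 876, 1258, 1043, 2151 and 1490 in mutant 6, 7, 8, 9 and 10, against 985, 995, 895, 909 and 948 in wild type 1 to 5. Mutant 7, 8, 9 and 10 lay above every wild type count and mutant 6 below all of them. Counts of miR-425 were 626, 707, 685, 1231 and 1031 in mutant 6 to 10, against 599, 540, 548, 520 and 708 in wild type 1 to 5. Here mutant 9 and 10 lay above every wild type count, and the other 3 mutant libraries fell inside the wild type range. Raw counts of mutant 9 were 2.27 times the wild type mean for miR-191 and 2.11 times for miR-425, and those of mutant 10 were 1.57 and 1.77 times.

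**Figure D1:**
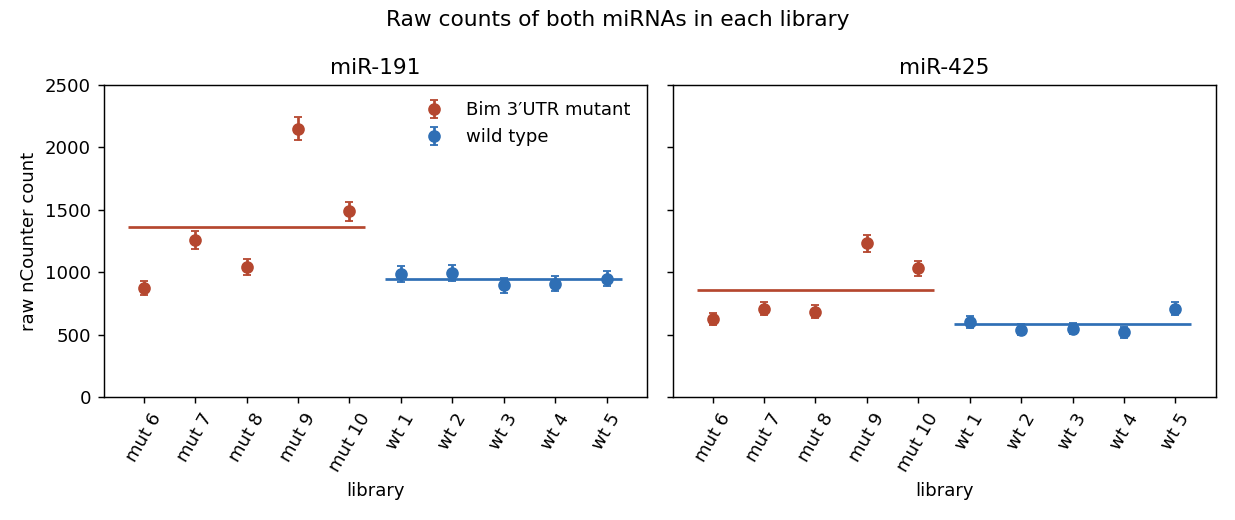
Raw counts (y axis, linear from 0) of miR-191 (left) and miR-425 (right) in each library, mutant in red and wild type in blue. Points are single libraries, bars are 95% intervals from the square root of the count (counting error only), and lines are group means. Mutant 9 (2151 and 1231) and mutant 10 (1490 and 1031) are the highest libraries for both miRNAs.

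Mutant 9 and 10 also had the highest mouse miRNA totals, 354826 and 331407, so the members were next set relative to the other miRNAs. For this the counts of the 116 kept miRNAs were divided by TMM-scaled library sizes and expressed as CPM. On this scale miR-191 had 3707, 4857, 3876, 6911 and 5505 CPM in mutant 6 to 10, and 3937, 4077, 3685, 4018 and 4183 CPM in wild type 1 to 5. Mutant 7, 9 and 10 stayed above all wild type libraries. miR-425 had 2649, 2730, 2546, 3955 and 3809 CPM in mutant 6 to 10, and 2394, 2213, 2256, 2298 and 3124 CPM in wild type 1 to 5. Mutant 9 and 10 were again the highest, wild type 5 was above the other 3 mutants, and the genotypes overlapped for both miRNAs. For miR-425 that overlap rested on wild type 5 alone, and every mutant library lay above the remaining wild type libraries. Across the panel the genotypes did not overlap for 3 of the 116 kept miRNAs (2.59%).

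Neither miRNA passed the test between genotypes. miR-191 averaged 4971 ± 1309 CPM in mutant and 3980 ± 188 CPM in wild type libraries (SD, n = 5 each). Its fitted log2 fold change, mutant over wild type, was 0.32 (SE 0.17, 95% interval -0.06 to 0.70), and the adjusted p was 0.382 (edgeR, quasi-likelihood, Benjamini-Hochberg). miR-425 averaged 3138 ± 685 CPM in mutant and 2457 ± 379 CPM in wild type libraries (SD, n = 5 each). Its log2 fold change was 0.35 (SE 0.18, 95% interval -0.04 to 0.75), with an edgeR adjusted p of 0.373. Over all kept miRNAs, 0 of 116 (0%) passed the adjusted threshold of 0.05 in edgeR, 11 (9.48%) had an unadjusted p under 0.05, DESeq2 called 5 (4.31%) and limma with voom weights called 0. The members were the 22nd (miR-425, unadjusted p = 0.0762 in edgeR) and the 27th (miR-191, 0.0889 in edgeR) by p. The intervals allow a mutant level from 0.960 to 1.63 times that of wild type for miR-191, and from 0.969 to 1.68 times for miR-425. The median log2 fold change of the 116 was -0.00, with 58 above 0 and 58 below.

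Shares of all mouse miRNA counts also overlapped between the genotypes. A share scales each library by its own miRNA total, so it also shifts when other abundant miRNAs change. miR-191 took 0.349%, 0.493%, 0.363%, 0.606% and 0.450% of counts in mutant 6 to 10, and 0.370%, 0.392%, 0.341%, 0.378% and 0.384% in wild type 1 to 5. The means were 0.452% and 0.373%, a difference of 0.0792 percentage points (95% interval -0.0286 to 0.194, exact two-sided permutation p = 0.143, n = 5 each, Benjamini-Hochberg adjusted p = 0.214 over 3 tests). miR-425 took 0.249%, 0.277%, 0.238%, 0.347% and 0.311% in mutant 6 to 10, and 0.225%, 0.213%, 0.209%, 0.216% and 0.287% in wild type 1 to 5. The means were 0.285% and 0.230%, a difference of 0.0547 points (95% interval -0.00589 to 0.117, exact permutation p = 0.0635, n = 5 each, adjusted p = 0.190). Leaving the rRNA and tRNA fragment probes miR-720 and miR-2141 out of the total gave 0.0808 points for miR-191 (exact permutation p = 0.175). It gave 0.0564 points for miR-425 (exact permutation p = 0.0794). The smallest p that 5 against 5 allows is 0.00794. Single libraries moved these differences. Without wild type 5 the miR-425 difference was 0.0689 points (exact permutation p = 0.0159, adjusted p = 0.0476 over the 3 tests). Every mutant share of miR-425 then lay above every remaining wild type share, so that p was the smallest the reduced groups allow. Without mutant 9 the miR-425 difference was 0.0391 points (exact permutation p = 0.127, adjusted p = 0.381). The miR-191 difference was 0.0406 points without mutant 9 (exact permutation p = 0.286, adjusted p = 0.429).

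Mutant 9 and 10 were also left out together, an alternative chosen after the data were seen, in which a smaller difference follows from leaving out the highest mutant libraries. The log2 fold change was then 0.06 for miR-191 and 0.11 for miR-425, and the shares differed by 0.0286 and 0.0250 points. On the CPM scale both members were higher in mutant 9 and 10 than in any other library. There 25 of the 116 kept miRNAs (21.6%), both members included, were above the other 8 libraries in mutant 9 and 10 alike, and 17 (14.7%) were below. Among other values in the same libraries, the summed B-lymphoid and pan-haematopoietic markers made up 11.7% of mouse miRNA counts in mutant 9 and 11.4% in mutant 10. The sum was 9.88% to 11.4% in the other mutants and 10.0% to 13.3% in wild type. Most of it was miR-142-3p (median 24906 counts over the libraries), so the sum does not show each marker. Within it, miR-181a had 10918 and 10817 counts in mutant 9 and 10. Its counts were 3210 to 4585 in the other mutants and 3743 to 4187 in wild type. Gapdh mRNA had 244 and 309 counts in mutant 9 and 10, while the other mutants ranged from 966 to 1187 and wild type from 625 to 901. B2m mRNA, which also enters the housekeeping scaling, had 4029 and 4195 counts in mutant 9 and 10 and 1490 to 1592 in the other mutants, against 3250 to 4561 in wild type. The part of these mRNAs in the result was not tested, and in these bulk samples more expressing cells and more miRNA per cell cannot be told apart.

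The size of the difference moved with the scaling. The log2 fold changes were 0.87 (miR-191) and 0.89 (miR-425) when libraries were scaled to the 4 housekeeping mRNAs, with the median of all miRNAs at 0.46. With the positive controls they were 0.56 and 0.58 with a median of 0.20. With no filter on low counts they were 0.54 and 0.57 with a median of -0.04. The edgeR adjusted p was 0.0898 for both under housekeeping scaling, the lowest of all alternatives. Unadjusted edgeR p-values were 0.0217 (miR-191) and 0.0191 (miR-425) under housekeeping scaling, where 52 of 116 miRNAs had one under 0.05. With positive controls they were 0.0387 and 0.0346, where 23 of 116 did. With no filter they were 0.0176 and 0.0133, where 49 of 566 did.

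**Figure D2:**
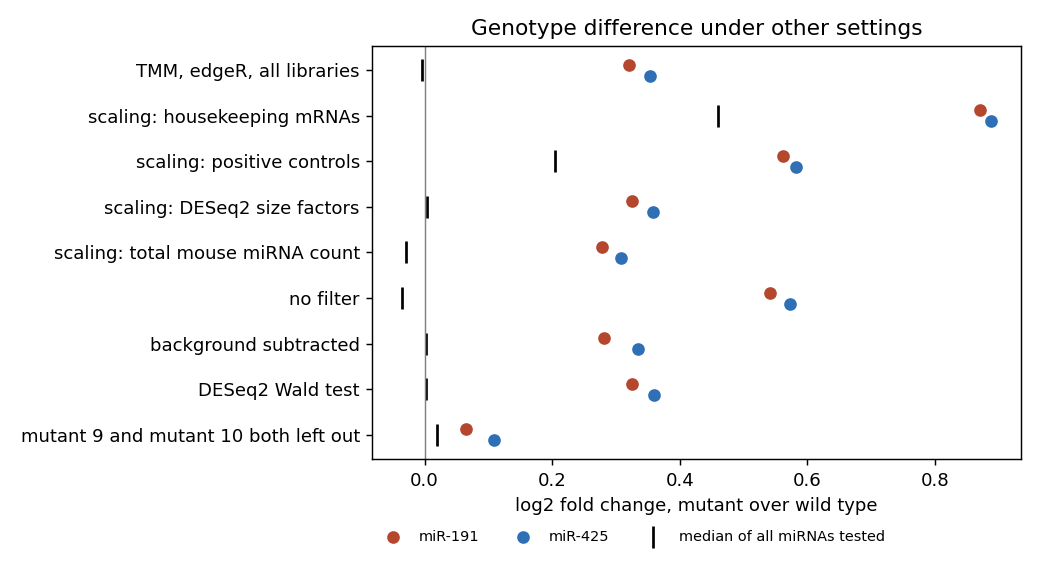
Log2 fold change, mutant over wild type, of miR-191 (red) and miR-425 (blue) under the main edgeR fit and 8 other settings, with the median of all miRNAs tested as a black tick. Both values lie right of 0 in each fit shown, highest under housekeeping scaling (0.87 and 0.89) and lowest without mutant 9 and 10 (0.06 and 0.11).

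Over all 10 libraries the ratio of the pair spanned a narrower range than the levels. Dividing the miR-191 count by the miR-425 count within a library removes loading and scaling from the comparison. The ratio was 1.40, 1.78, 1.52, 1.75 and 1.45 in mutant 6 to 10, and 1.64, 1.84, 1.63, 1.75 and 1.34 in wild type 1 to 5. All 5 mutant values fell inside the wild type range. The highest over the lowest ratio was 1.38, while the same span was 2.46 in counts and 1.88 in CPM for miR-191, and 2.37 and 1.79 for miR-425. Without mutant 9 and 10 the spans were alike, at 1.38 for the ratio, 1.32 for miR-191 CPM and 1.41 for miR-425 CPM, so the narrower range rests on those libraries. Mutant 9, with the highest counts of both, had a ratio of 1.75, equal to 3 digits to that of wild type 4. The lowest ratio, 1.34 (95% interval 1.21 to 1.48, exact binomial, counting error only), belonged to wild type 5 and the highest, 1.84 (1.66 to 2.05), to wild type 2. Probes can differ in ligation and capture, so a ratio above 1 is one of counts and does not give the ratio of molecules.

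**Figure D3:**
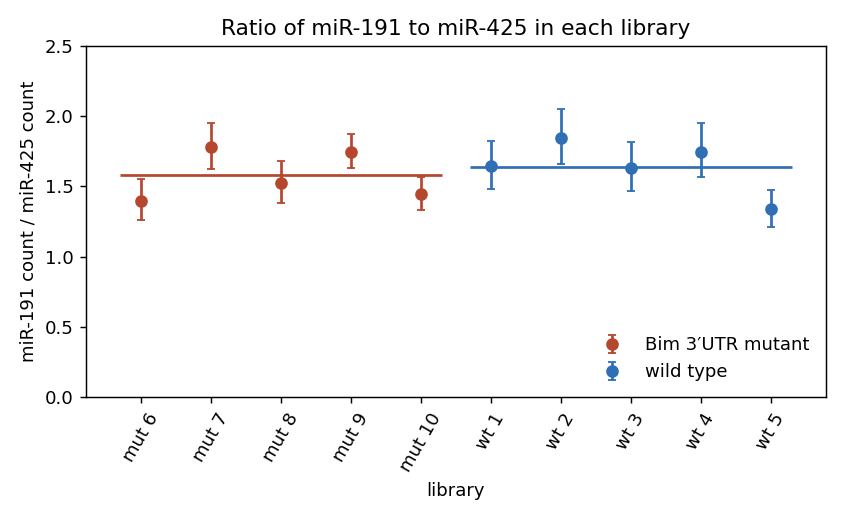
Count of miR-191 divided by count of miR-425 (y axis, linear from 0) in each library, mutant in red and wild type in blue, with exact binomial 95% intervals for counting error and lines at the group means. The mutant libraries (1.40 to 1.78) lie inside the wild type range (1.34 to 1.84).

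The mean log2 ratio was 0.65 ± 0.16 in mutant and 0.71 ± 0.17 in wild type libraries (SD, n = 5 each). The difference was -0.05 (95% interval -0.29 to 0.19 by inverting the test, exact two-sided permutation p = 0.603, adjusted p = 0.603 over the same 3 tests), smaller than the SD in either genotype. The interval allows a mutant ratio from 0.817 to 1.14 times that of wild type. Without mutant 9 and 10 the difference was -0.07 (exact permutation p = 0.607). The SD over all 10 libraries was 0.16, against 0.07 from counting error alone.

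Other neighbours on the panel were measured in the same way. Both probes were kept for 16 of 25 listed pairs, and the SD of the log2 ratio of miR-191 to miR-425 was the third lowest of the 16. miR-29a/miR-29b (0.12) and miR-30e/miR-30c (0.15) were lower, and in each of those the second miRNA has more than 1 gene. Among the 8 pairs whose members have 1 gene each, miR-191/miR-425 had the lowest SD, and the other 7 ran from 0.20 to 0.32. That place came from the mutant libraries. Over the 5 mutant libraries alone the SD of the pair was 0.16, the lowest of the 8 (others 0.24 to 0.42), while over the 5 wild type libraries alone it was 0.17, the 6th of the 8 (others 0.12 to 0.24) and the 12th of the 16. The cluster most like it, miR-106b, miR-93 and miR-25 in an intron of the replication gene Mcm7, had SDs of 0.20 for miR-106b/miR-25, 0.24 for miR-93/miR-25 and 0.32 for miR-106b/miR-93. The median over all 6670 pairs of kept miRNAs was 0.47, and 3.13% of those pairs had a lower SD than miR-191/miR-425. These values share the same libraries and are a description, and differences between pairs were not tested.

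**Figure D4:**
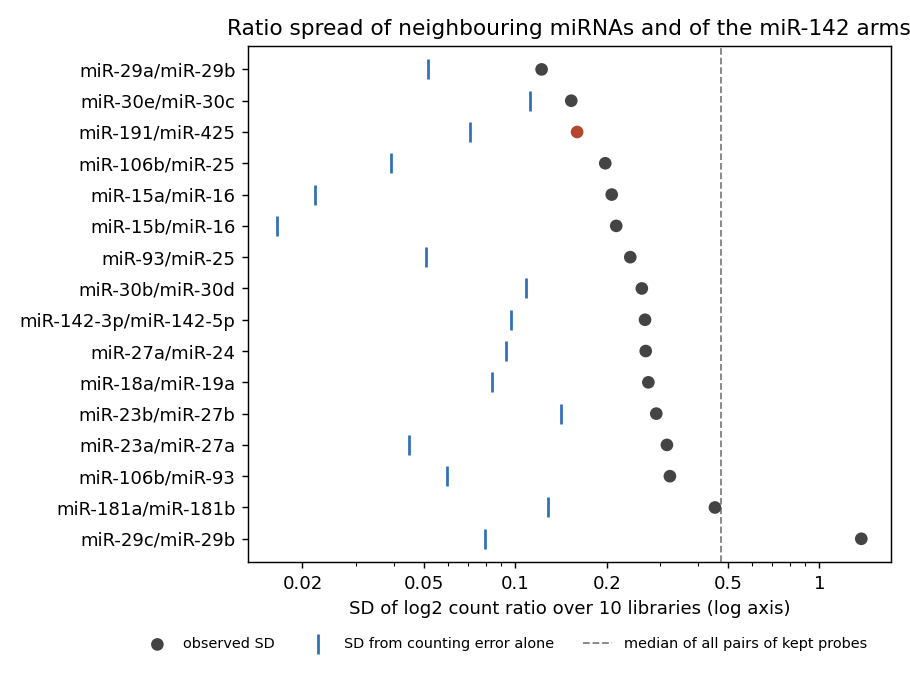
SD of the log2 count ratio over 10 libraries (x axis, log scale) for 15 pairs of neighbouring miRNAs and the 2 arms of miR-142, with the SD from counting error alone as blue ticks and the median of all pairs of kept probes (0.47) as a dashed line. miR-191/miR-425 (red, 0.16) is the third lowest of the 16. The miR-181b probe also covers miR-181d.

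Over the 10 libraries the CPM levels of the pair correlated at r = 0.86 (Spearman rho 0.68) on the log2 scale, as a description. Without mutant 9 and 10 r was 0.40 over 8 libraries. For miR-191 the most similar profiles were those of miR-30c (r = 0.86), miR-425, miR-181a (0.85), miR-30e (0.84) and miR-146a (0.83). miR-181a is enriched in lymphoid progenitors and miR-146a is induced by NF-kB. In raw counts each of the 5 was highest in mutant 9 and 10. For miR-181a those counts were 10918 and 10817, while the other mutants ran from 3210 to 4585 and wild type from 3743 to 4187. Without mutant 9 and 10, r with miR-191 was 0.48 for miR-146a, 0.38 for miR-30e, 0.08 for miR-181a and -0.01 for miR-30c.

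For miR-425 the most similar profiles were those of other miRNAs than its neighbour. miR-374 had r = 0.94, miR-532-5p 0.94, miR-1944 0.90 and miR-2137 0.88, and miR-191 (0.86) was the fifth. Leaving out mutant 9 and 10 kept r at 0.91 for miR-374, 0.89 for miR-1944 and 0.77 for miR-532-5p, and gave 0.43 for miR-2137. Counts of miR-374 were 886 and 847 in mutant 9 and 10, 582 to 683 in the other mutants and 470 to 606 in wild type. All of these profiles share libraries and depth.

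By mean CPM, miR-191 was the 31st and miR-425 the 40th of the 116 kept miRNAs. This order takes probes as the panel names them. It includes miR-2141 (55525 CPM) and miR-720 (50409 CPM), treated here as rRNA and tRNA fragments. Whether others in the order, such as miR-2140, miR-2135 and miR-2145, are such fragments was not checked. miR-191 (4476 ± 1025, SD over 10 libraries) stood between miR-342-3p (4632 ± 966) and miR-29c (4483 ± 8421) above it and miR-30c (4386 ± 930) and miR-301a (4376 ± 991) below it. miR-425 (2797 ± 633) stood below miR-2140 (3135 ± 1869) and miR-2135 (3049 ± 1359) and above miR-350 (2619 ± 677) and miR-2145 (2563 ± 1496). The mean of miR-29c rested on mutant 10, with 28318 CPM. Over the other 9 libraries it was 1835 CPM, and miR-29c exceeded miR-191 in 1 of the 10 libraries. None of these neighbours in the order differed from the member by more than its own SD. miR-191 exceeded miR-425 in all 10 libraries.

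Reference miRNAs are chosen for a steady level, and the pair had a wider spread over the 10 libraries than the other kept candidates. Of 9 others, 8 were kept (miR-16, let-7a, miR-103, miR-93, miR-25, miR-24, miR-26b and miR-423-5p) and miR-92a was not. The SD of the log2 CPM over 10 libraries was 0.29 for miR-191 and 0.30 for miR-425, the 65th and 71st of 116 from the lowest, against 0.11 (let-7a) to 0.25 (miR-423-5p) for the other 8. The pair also had the highest SD of the list after scaling to positive controls (0.43 and 0.44, against 0.20 to 0.35) and to housekeeping mRNAs (0.61 and 0.62, against 0.34 to 0.53). Within wild type libraries alone miR-191 had an SD of 0.07, the 11th lowest of 116, and miR-425 had 0.20, the 67th. Without mutant 9 and 10 the values were 0.13 and 0.17, against 0.09 to 0.20 for the other 8.

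**Figure D5:**
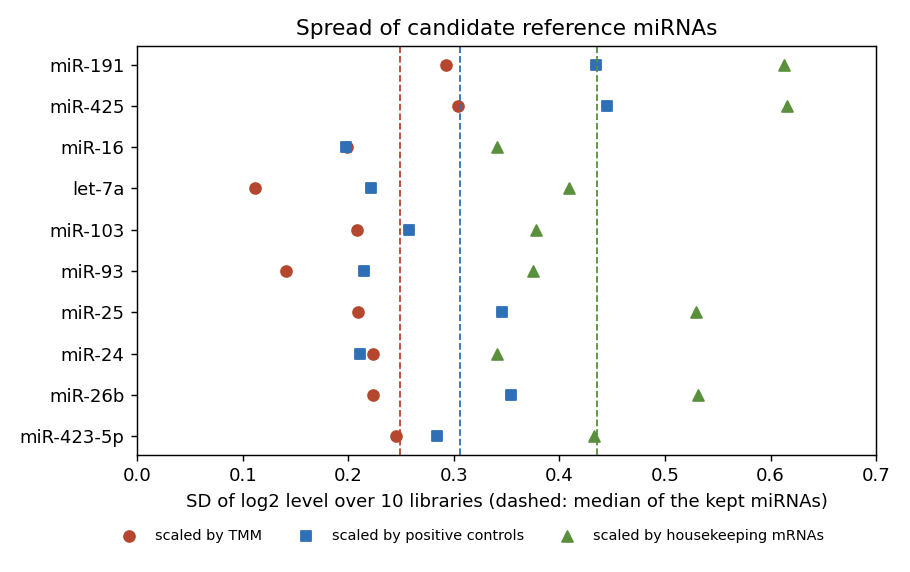
SD of the log2 level over 10 libraries (x axis) of miR-191, miR-425 and 8 other candidate reference miRNAs, scaled by TMM (red), positive controls (blue) or housekeeping mRNAs (green), with dashed lines at the medians of the 116 kept miRNAs. At the top, miR-191 (0.29, 0.43 and 0.61) and miR-425 (0.30, 0.44 and 0.62), lie right of the other 8 miRNAs under each scaling.

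The other listed miRNAs within protein-coding host genes had log2 fold changes on both sides of 0. Of 37 listed, all on the panel, 23 were kept. Of these, 13 had a log2 fold change above 0 and 10 below, where all kept miRNAs divided into 58 and 58. In edgeR 0 passed (0% of all kept) and 2 had an unadjusted p under 0.05 (9.48% of all kept), so these counts lie near the background and are no result about the list. The median was 0.02, against -0.00 for all kept miRNAs. The 4 with the smallest p were miR-26b (0.35, edgeR adjusted p = 0.250), from an intron of a Ctdsp phosphatase gene, miR-25 (0.27), miR-106b (0.32) and miR-30e (0.25), each of the last 3 with an edgeR adjusted p of 0.373. The members' own values were 0.32 and 0.35.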

How the data were processed

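The authors deposited whole-number nCounter counts per probe and library, with the control probes included. The 2 deposited tables held equal values in all 6260 cells, and the summary columns of one were not used. How raw instrument data were turned into these counts is not stated by the labels. Per the labels' protocols, RNA was extracted with a miRNeasy kit and samples of low purity were excluded. Groups came from the titles.

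Probes were kept if their count was over the mean + 2 SD of the 8 negative controls (90.5 to 127) in at least 5 libraries. The 116 kept probes entered edgeR 4.0.16 under R 4.3.3, using TMM, genotype as the only term, and a robust quasi-likelihood fit, with p-values adjusted over all 116. The script was checked on simulated counts with log2 fold changes far larger than those of the members. That check does not show how often a change of their size would be found. Shares and the log2 ratio were compared by exact two-sided permutation over 252 splits. Alternatives were other scalings and filters, background subtraction, DESeq2 1.42.0, limma 3.58.1 with voom weights, and leaving out libraries.

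The members, lists and tests were chosen with earlier results of these data known. The miRNAs named were both members, the 5 most correlated with each, 2 on each side by level, the neighbouring pairs, the candidate reference miRNAs and the 4 intronic miRNAs with the smallest p. miR-489, for its seed, and the example cell type markers were added to these.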

Additional observations from a re-analysis of the deposited data

Results flagged for a closer look

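In wild type 5 miR-425 stood apart from the other 4 wild type libraries. Its level there was 3124 CPM and its share of mouse miRNA counts 0.287%, and the gap to the nearest wild type library took up 0.801 and 0.788 of the group's range, above Dixon's 95% critical value for 5 samples. miR-191 did not stand apart in that library, and the ratio of miR-191 to miR-425 was 1.34 there. In all, 14 groups of values were checked, and chance picks out about 1 in 20.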

How the results depend on the processing

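The log2 fold changes kept their direction and stayed short of the adjusted p threshold under all 23 alternatives. They ran from 0.06 to 0.87 for miR-191 and from 0.11 to 0.89 for miR-425. Leaving out 1 library gave 0.22 to 0.41 and 0.27 to 0.45. Their unadjusted p was under 0.05 in some of the alternatives, for both members with housekeeping scaling, positive controls or no filter. The difference in log2 ratio stayed below 0 and short of the threshold under all 13 alternatives (-0.13 to -0.01 with 1 library left out). The miR-191 share did not pass under any of 14 (0.0406 points without mutant 9, 0.105 without mutant 6). The miR-425 share differed by 0.0391 to 0.0689 points with 1 library left out and had an unadjusted p under 0.05 without wild type 5, mutant 6 (0.0635) or mutant 8 (0.0662). Adjusted over the 3 tests, p was 0.0476 without wild type 5 and 0.119 without mutant 6 or mutant 8 (exact permutation). The count of called miRNAs, 0 in edgeR, was 5 in DESeq2, 0 to 1 with 1 library left out (1 without mutant 9 or mutant 10) and 5 without both. The cause was not tested. The SD of log2 level moved with scaling, for miR-191 to 0.43 (positive controls), 0.61 (housekeeping mRNAs) and 0.13 (without mutant 9 and 10), and for miR-425 to 0.44, 0.62 and 0.17. The SD of the log2 ratio was 0.17 after background subtraction and 0.17 without mutant 9 and 10. No paired analysis was run, because the labels name no pairing between mutant and wild type samples.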
